A study of Mus musculus with 4 samples.

Results

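The genes described here are those of MHC class II antigen presentation: the chain genes H2-Aa, H2-Ab1 and H2-Eb1, the invariant chain gene Cd74, the peptide exchange genes H2-DMa, H2-DMb1 and H2-Oa, the transactivator gene Ciita and the protease gene Ctss. These 9 genes were chosen by name, with earlier results of these data known. A probe named through the array design was found for 8 of them, among 25095 genes tested, and H2-Eb1 was not analysed here. Their levels were compared in livers of female CD-1 mice, aged 8 wk, that had received Cux2 siRNA and were killed 5 or 8 days later, against female CD-1 mice of the same age given a non-specific siRNA. CD-1 is an outbred laboratory stock. Cux2 encodes a homeodomain transcription factor that is expressed more highly in female than in male mouse liver, and the study asked which liver genes respond when it is knocked down. The 4 RNA pools of Cux2 siRNA livers were hybridised, 2 for each day, on 4 Agilent 2-colour arrays of 1 slide. Pools of 3 and of 2 mice made up replicates 1 and 2 of day 5, and 2 mice made up each pool of day 8. The opposite channel of each array carried a pool of livers from mice given non-specific siRNA. The study text gives 13 control mice in 2 pools of 6 or 7, and the sample labels give 6 control mice for each array. The 2 pools served 4 arrays, so control RNA recurs among them, and whether it recurs between the days is not stated in the labels. Cux2 siRNA RNA was labelled with Alexa 647 in replicate 1 and with Alexa 555 in replicate 2 of each day, so replicate number and dye orientation cannot be told apart.

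MHC class II molecules carry peptides of proteins taken up from outside the cell to the cell surface, where CD4+ T cells read them. The α and β chains assemble with the invariant chain, cathepsins cut the invariant chain down to a short fragment, and H2-DM exchanges that fragment for a peptide, with H2-O holding H2-DM back. In liver the molecules are known mainly from Kupffer cells, dendritic cells and B cells, and interferon-γ raises their genes in many other cell types through IRF1 and CIITA. In a bulk liver sample, fewer cells of a type and less RNA per cell cannot be told apart.

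Promoters of class II genes hold an X box and a Y box that RFX5, CREB1 and NF-Y bind and on which CIITA assembles. The 150 bases before the start site were read for 6 of the 9 members from RefSeq sequences of GRCm38.p6. Promoters of 4 genes are shown 5′ to 3′ on the strand of the gene. They were chosen to set 2 genes that were lower after Cux2 siRNA beside 1 dim gene, H2-Oa, whose ratio was near 0. They add a protease gene whose window holds none of the X-box-like or Y-box-like letters. Capitals mark an X-box-like CNAGNAAC, a cAMP response element TGACGTCA, a Y-box-like TGATTGG, or, in Ctss, an element like the interferon-stimulated response element, which is searched as 2 copies of GAAA with any 2 bases between them. These letters were searched on both strands and were chosen with the sequences in view.
H2-DMb1, plus strand of chr17:34153041-34153190: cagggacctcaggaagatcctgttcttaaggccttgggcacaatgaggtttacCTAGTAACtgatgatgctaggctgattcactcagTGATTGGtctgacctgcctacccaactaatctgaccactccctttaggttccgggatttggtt
H2-Aa, minus strand of chr17:34287824-34287973: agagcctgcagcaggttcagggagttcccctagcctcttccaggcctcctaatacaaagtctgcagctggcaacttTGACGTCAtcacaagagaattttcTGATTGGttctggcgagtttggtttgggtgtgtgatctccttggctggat
H2-Oa, plus strand of chr17:34092229-34092378: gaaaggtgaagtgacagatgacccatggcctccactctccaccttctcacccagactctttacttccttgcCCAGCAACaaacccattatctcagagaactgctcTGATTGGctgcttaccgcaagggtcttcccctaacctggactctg
Ctss, plus strand of chr3:95526636-95526785: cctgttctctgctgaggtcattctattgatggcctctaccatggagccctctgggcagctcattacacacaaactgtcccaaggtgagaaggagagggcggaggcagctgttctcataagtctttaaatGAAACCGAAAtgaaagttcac
The X-box-like and Y-box-like letters stood 26 bases apart both in H2-DMb1 and in H2-Oa. In H2-Aa the cAMP response element ended 16 bases before the Y-box-like letters. No stretch of the H2-Aa window matched the X-box-like letters as searched, which does not show that an X box is absent. Ctss held the GAAA repeat from base -21 to base -12 before its start. Among 32851 mouse promoter windows of the same length, 6.96% held the X-box-like letters, 1.36% the cAMP response element, 5.71% the Y-box-like letters and 1.59% the GAAA repeat. X-box-like and Y-box-like letters stood together in 0.472% of the windows. Neither start site of H2-DMa had a match to any of the letters in its window. Of the promoters not shown, H2-Eb1 and H2-Ob held both the X-box-like and the Y-box-like letters, and H2-DMb2 held the Y-box-like letters only. A match describes letters in a window and is not a measured binding site.

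All values below are log2 ratios of Cux2 siRNA over non-specific siRNA unless called a channel level, and a gene passed when its adjusted p was under 0.05 (limma's moderated test over all 25095 genes, Benjamini-Hochberg). Cux2 itself was checked before the other genes. Its channel level was 8.14 and 7.82 in the day 5 Cux2 siRNA pools, against 10.06 and 9.52 in the control pools of the same arrays. On day 8 the levels were 9.04 and 8.48 after Cux2 siRNA, against 10.11 and 9.68 in controls. Cux2 was thus at 28.6% of control on day 5 and at 45.6% on day 8, and passed on both days (adjusted p = 0.00297 and 0.00699). Leaving out day 8 replicate 2 ended the day 8 call (adjusted p = 0.065), and centring arrays on their medians in place of loess ended both (0.129 and 0.277). Probes well above background made up 71.1% to 74.6% of each channel. All 9 hepatocyte markers tested were well above background in all 8 channel readings, so defining markers of the labelled tissue were present. Every member tested was also above background in all 8 readings.

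Across the class II set, 7 of 8 genes were below 0 on each of the 4 arrays, as were 26.1% of all genes tested. On day 5, 5 of 8 members fell, 0 rose and 3 did not pass, where 9.42% of all genes fell and 7.38% rose. On day 8, 4 of 8 fell and 0 rose, where 8.05% of all genes fell and 6.27% rose. Over the mean of both days 6 of 8 fell and 0 rose, where 16.3% of all genes fell and 14.8% rose. The members' median was -1.16 on day 5 and -0.90 on day 8, while the median of all genes was 0.000901 and 0.00422. H2-Oa stood apart from the other 7 members, whose 28 single ratios ran between -1.91 and -0.25. It was also the dimmest member, at a mean control level of 7.02, where ratios are compressed. The counts depended on single arrays: leaving out one array gave 0 to 5 members called on day 5, 0 to 5 on day 8, and 4 to 7 over both days. Without loess, after centring each array on its median only, 0 members passed in any of these comparisons.

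**Figure D1:**
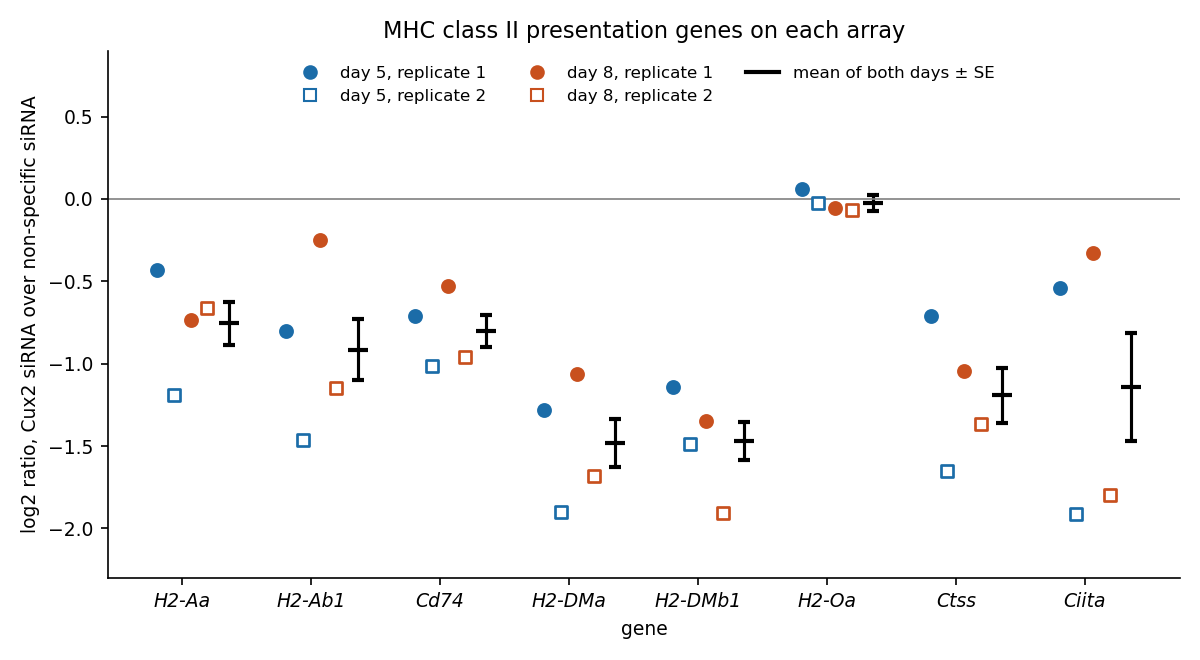
Log2 ratio of Cux2 siRNA over non-specific siRNA (y axis) of 8 class II presentation genes (x axis), 1 point per array, coloured by day, filled for replicate 1 and open for replicate 2, with black bars for the mean over both days and its SE. H2-Oa, the dimmest gene shown, lies near 0 on all 4 arrays, and the other 28 points lie between -1.91 and -0.25, with replicate 2 mostly below replicate 1.

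The chain genes H2-Aa and H2-Ab1, which encode the α and β chains of the class II molecule I-A, were lower on every array. H2-Aa had channel levels of 12.14 and 11.08 in the day 5 Cux2 siRNA pools and 11.93 and 11.69 in the day 8 pools, against 12.57 and 12.27 in the day 5 controls and 12.67 and 12.35 in the day 8 controls. Every Cux2 siRNA pool lay below every control pool. H2-Aa fell on day 5 by 0.81 on the log2 scale (SE 0.185, adjusted p = 0.0487), and its day 8 ratio of -0.70 (SE 0.185, adjusted p = 0.0744) did not pass. Over both days it fell to 59.3% of control (log2 ratio -0.75, SE 0.131, adjusted p = 0.0153). Without day 8 replicate 1 it no longer passed (adjusted p = 0.051), nor without day 8 replicate 2 (adjusted p = 0.0528) or background subtraction (adjusted p = 0.052). The day 5 call did not hold without day 5 replicate 2 (adjusted p = 0.167) or either day 8 array (adjusted p = 0.0705), while the day 8 ratio passed without either day 5 array (adjusted p = 0.0227). A second probe of H2-Aa gave -0.51, -0.98, -0.96 and -0.96 on the 4 arrays, where the probe used gave -0.43, -1.19, -0.74 and -0.66.

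H2-Ab1 had channel levels of 12.01, 11.33, 12.64 and 11.80 in the Cux2 siRNA pools, in the order of day and replicate, against 12.81, 12.79, 12.89 and 12.94 in the controls. The controls spread little, and the Cux2 siRNA pools ranged more widely, with day 8 replicate 1 nearest its control at a ratio of -0.25. The ratio was -1.13 on day 5 (SE 0.262, adjusted p = 0.0502) and -0.70 on day 8 (SE 0.262, adjusted p = 0.154), and neither passed. Over both days H2-Ab1 fell to 53.0% of control (log2 ratio -0.91, SE 0.186, adjusted p = 0.023). It no longer passed without day 5 replicate 2 (adjusted p = 0.0792) or day 8 replicate 2 (adjusted p = 0.0531). Nor did it pass without background subtraction (0.072), with the scanner's processed signals (0.0565) or with the authors' deposited table (0.057). On day 5 alone it passed without either day 8 array (adjusted p = 0.0303). All 3 probes of H2-Ab1 kept the same order of arrays: their ratios on day 8 replicate 1 were -0.25, -0.44 and -0.30, and those on day 5 replicate 2 were -1.46, -1.70 and -1.58. One of these probes is spotted 10 times per array, and its spots had an SD of 0.0297 to 0.0459 within an array.

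Cd74 encodes the invariant chain, which fills the groove of new class II molecules and directs them to the endosome. Its channel levels were 13.13, 12.65, 13.35 and 12.77 in the Cux2 siRNA pools, against 13.83, 13.66, 13.88 and 13.73 in the controls. No Cux2 siRNA pool reached the lowest control. Cd74 fell on day 5 by 0.86 on the log2 scale (SE 0.137, adjusted p = 0.0215) and on day 8 by 0.75 (SE 0.137, adjusted p = 0.0329). Over both days it was at 57.3% of control (log2 ratio -0.80, SE 0.0967, adjusted p = 0.00608), and this call held when any single array was left out. The single-day calls did not: day 5 gave an adjusted p of 0.0723 without its replicate 1 and 0.158 without its replicate 2, and day 8 gave 0.0596 and 0.189.

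H2-DMa and H2-DMb1 encode the chains of H2-DM, the endosomal catalyst of peptide exchange, and had the lowest mean ratios of the members over both days. H2-DMa had channel levels of 8.49, 8.13, 8.71 and 8.50 in the Cux2 siRNA pools, against 9.77, 10.03, 9.77 and 10.18 in the controls. The groups were separated by more than 1 log2 unit on every array. H2-DMa fell on day 5 by 1.59 on the log2 scale (SE 0.21, adjusted p = 0.0152) and on day 8 by 1.37 (SE 0.21, adjusted p = 0.0225). Over both days it was at 35.8% of control (log2 ratio -1.48, SE 0.148, adjusted p = 0.00396). H2-DMb1 had channel levels of 10.08, 9.73, 9.91 and 9.43 in the Cux2 siRNA pools, against 11.22, 11.21, 11.26 and 11.34 in the controls. Its controls lay within a narrow band, and all 4 Cux2 siRNA pools lay at least 1 log2 unit below it. H2-DMb1 fell on day 5 by 1.31 (SE 0.164, adjusted p = 0.0138), with single ratios of -1.35 and -1.90 on day 8 (adjusted p = 0.0106). Over both days it was at 36.1% of control (log2 ratio -1.47, SE 0.116, adjusted p = 0.00249), and a second probe gave -1.11, -1.83, -0.80 and -1.66 on the 4 arrays. Both genes kept the call over both days without any single array. Within a day, H2-DMa was lost on day 5 without replicate 2 (adjusted p = 0.102) and on day 8 without replicate 1 or 2 (0.0514 and 0.137). H2-DMb1 was lost on day 5 without replicate 1 or 2 (0.0521 and 0.107) and on day 8 without replicate 2 (0.0627).

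H2-Oa encodes the α chain of H2-O, the inhibitor of H2-DM, which is known mainly from B cells, and its ratio lay near 0. Its channel levels were 7.05, 6.89, 6.98 and 7.06 in the Cux2 siRNA pools, against 6.99, 6.92, 7.03 and 7.13 in the controls. The groups overlapped. The ratio over both days was -0.02 (SE 0.0477, adjusted p = 0.769), and its second probe gave ratios of 0.07, -0.07, -0.04 and -0.03. H2-Ob, which encodes the β chain of H2-O, had ratios of -0.09, 0.08, -0.07 and -0.34 (mean -0.10, SE 0.0689, adjusted p = 0.319). H2-DMb2, the neighbouring copy of H2-DMb1, gave -0.11, -0.18, 0.10 and 0.05 (mean -0.03, SE 0.0476, adjusted p = 0.671). The promoter of H2-Oa printed above has X-box-like and Y-box-like letters at the same spacing as that of H2-DMb1, whose ratio was -1.47. Whether probes of H2-DMb1 and H2-DMb2 also bind the other gene's RNA was not tested, since no probe sequences were used here.

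Ctss encodes cathepsin S, which makes the late cuts of the invariant chain. Its channel levels were 14.31, 13.29, 14.09 and 13.71 in the Cux2 siRNA pools, against 15.02, 14.94, 15.13 and 15.07 in the controls. All Cux2 siRNA pools lay below the controls, which were within 0.2 of each other. Ctss fell on day 5 by 1.18 on the log2 scale (SE 0.236, adjusted p = 0.0361) and on day 8 by 1.21 (SE 0.236, adjusted p = 0.0375). It was at 43.7% of control over both days (log2 ratio -1.19, SE 0.167, adjusted p = 0.00871), a call that held when any single array was left out. Omitting day 5 replicate 2 ended the day 5 call (adjusted p = 0.125), and the day 8 call did not hold without day 8 replicate 1 (0.11) or replicate 2 (0.224).

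Ciita encodes the transactivator on which transcription of the class II chain, invariant chain and H2-DM genes depends. Its ratio was -0.54 and -1.91 on day 5 and -0.33 and -1.80 on day 8, negative on all 4 arrays but far apart between replicate numbers. The mean was -1.23 on day 5 (SE 0.465, adjusted p = 0.147), -1.06 on day 8 (SE 0.465, adjusted p = 0.204) and -1.14 over both days (SE 0.328, adjusted p = 0.0575), and none of these passed. The 4 Cux2 siRNA pools had similar channel levels of 7.89, 7.98, 8.09 and 8.29. The controls were 8.43 and 8.42 in replicate 1 of the 2 days and 9.90 and 10.09 in replicate 2. The control level thus differed by 1.56 between replicate numbers, and the Cux2 siRNA level by 0.14. The labels do not say which control pool each array carried, and the controls were in Alexa 555 in replicate 1 and in Alexa 647 in replicate 2, so dye and control pool cannot be told apart. Over both days Ciita passed without day 5 replicate 1 (-1.49, adjusted p = 0.0447), without day 8 replicate 1 (-1.51, adjusted p = 0.0345) and with a smaller background offset of 16 (adjusted p = 0.0476). It was at -0.80 without day 5 replicate 2 (adjusted p = 0.169) and at -0.78 without day 8 replicate 2 (adjusted p = 0.156).

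**Figure D2:**
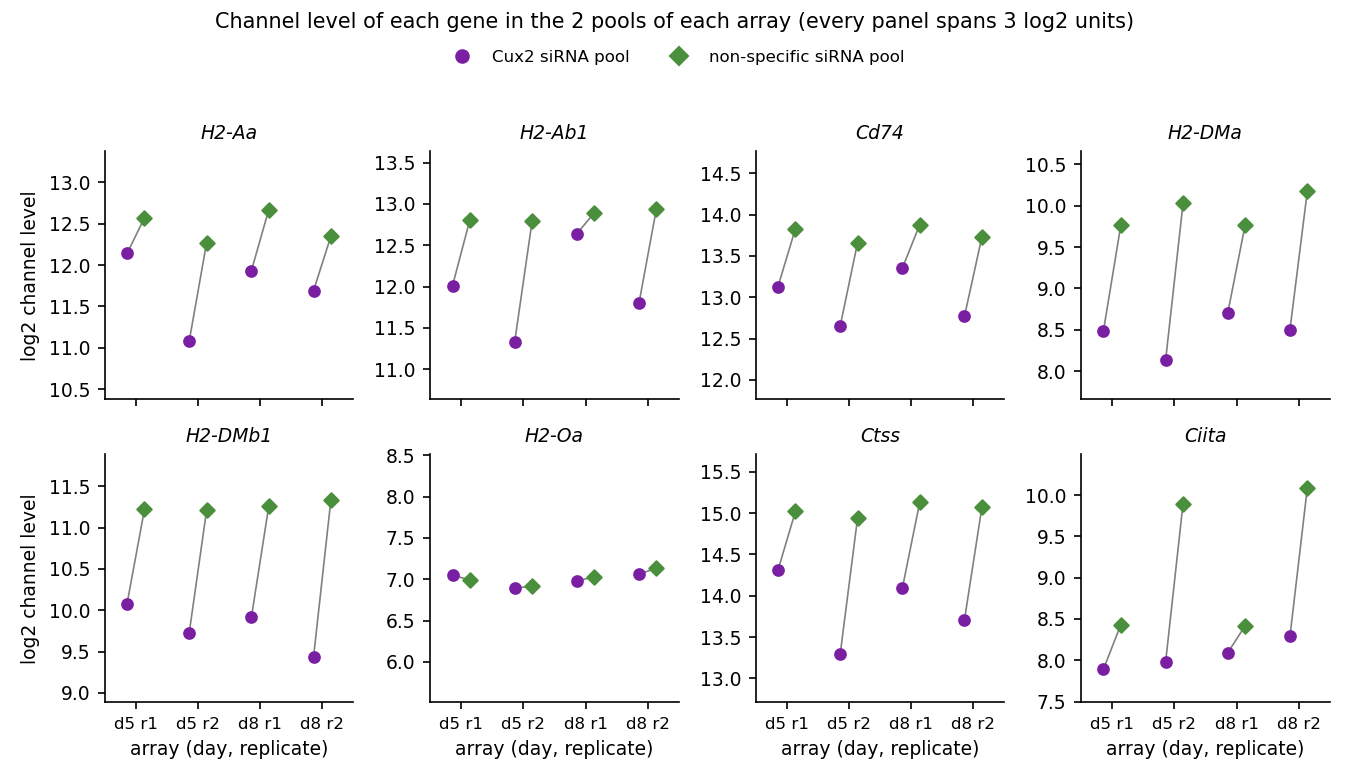
Log2 channel level (y axis) of each gene on each array (x axis, d for day and r for replicate), with the Cux2 siRNA pool as a circle left of the non-specific siRNA pool as a diamond, joined by a line; each panel spans 3 log2 units, and levels are not comparable between panels. The controls of Ciita are near 8.4 in replicate 1 and near 10 in replicate 2, whereas the controls of H2-Ab1, H2-DMb1 and Ctss are close together on all 4 arrays.

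All 8 members had a lower mean ratio in replicate 2 than in replicate 1, by amounts that differed widely. The mean ratio of replicate 2 minus that of replicate 1 was -1.42 for Ciita, and 0.343% of all genes had a lower value. Over the 8 members this gap had a median of -0.54 and ranged from -1.42 to -0.05. Over all genes the median gap was -0.00945, with the 5th and 95th percentiles at -0.377 and 0.337. The gaps of H2-Oa (-0.05), H2-Aa (-0.34) and Cd74 (-0.37) lay inside that range. For Ciita the gap lay mainly in the controls, as given above. For H2-Ab1 the gap lay in the Cux2 siRNA pools (-0.76) and not in the controls (0.02). For Ctss it likewise lay in the Cux2 siRNA pools (-0.70, against -0.07 in the controls).

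The difference between days, day 8 minus day 5, did not pass for any member, nor for any of the 25095 genes (0 in limma, with 621 genes, and 0 members, at an unadjusted p under 0.05). It was 0.11 for H2-Aa (SE 0.262), 0.43 for H2-Ab1 (SE 0.371) and 0.11 for Cd74 (SE 0.193). It was 0.22 for H2-DMa (SE 0.297), -0.31 for H2-DMb1 (SE 0.232), -0.03 for Ctss (SE 0.334) and 0.17 for Ciita (SE 0.657). Each difference was less than 1.5 times its SE, so changes between days of these sizes could not be told from the spread between arrays, with 2 arrays a day.

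In gene order on chromosome 17, genes that did not pass stood between genes that fell, and H2-Oa, the tested member of the region that did not pass, stood at its end. RefSeq lists 14 protein-coding genes from H2-Oa to H2-Eb2, and 12 of them were tested. Over both days 8 fell, 0 rose and 4 did not pass. The genes in order were H2-Oa (not passed), Brd2 (not tested), H2-DMa (fell), H2-DMb2 (not passed), H2-DMb1 (fell), Psmb9, Tap1, Psmb8 and Tap2 (all fell), H2-Ob (not passed), H2-Ab1 and H2-Aa (both fell), H2-Eb1 (not tested) and H2-Eb2 (not passed). The lowest ratio of the region was that of Tap1, a subunit of the transporter that feeds peptides to class I molecules, at -2.46 (SE 0.157, adjusted p = 0.00178). Psmb9, an immunoproteasome subunit, was at -2.26 (SE 0.174, adjusted p = 0.00241). H2-Eb2 was well above background in 2 of 8 readings only, so its ratio has little weight. H2-Oa, H2-DMb2, H2-Ob and H2-Eb2 were all dim, with mean channel levels of 7.00, 6.22, 6.38 and 6.03 in the Cux2 siRNA pools, against 7.02, 6.25, 6.48 and 6.03 in the controls, and the offset of 50 compresses ratios at such levels.

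**Figure D3:**
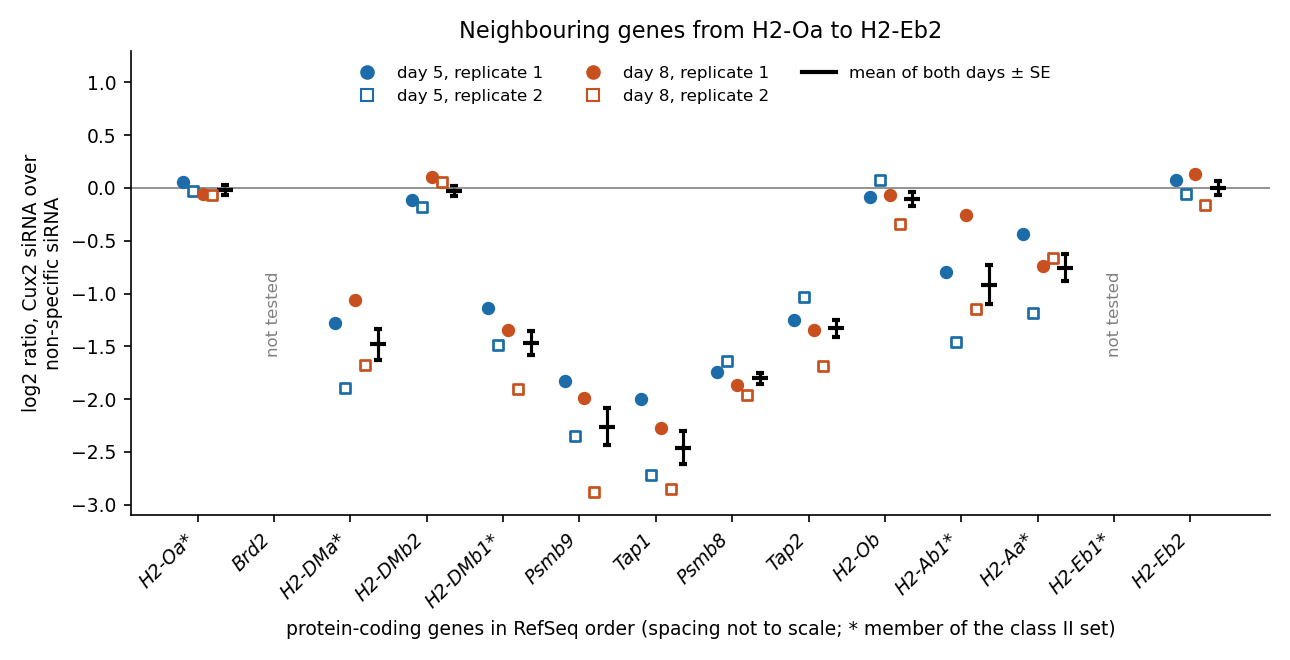
Log2 ratio of Cux2 siRNA over non-specific siRNA (y axis) of the 14 protein-coding genes from H2-Oa to H2-Eb2 in RefSeq order (x axis, not to scale), 1 point per array, with black bars for the mean over both days and its SE; asterisks mark members of the class II set. H2-Oa, H2-DMb2, H2-Ob and H2-Eb2 lie near 0 at dim channel levels, and are neighbours of genes that lie between -2.46 and -0.75.

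The other genes of the class II pathway moved less as a list. Of 26 listed, 24 were tested, and over both days 9 fell, 1 rose and 14 did not pass, with a median ratio of -0.13 beside 0.00322 for all genes. On day 5, 5 fell and 1 rose, and on day 8, 7 fell and 1 rose. Of all genes, 9.42% fell and 7.38% rose on day 5, and 8.05% fell and 6.27% rose on day 8. Over both days 16.3% of all genes fell and 14.8% rose. Lysosomal proteases made up 5 of the 9 that fell: Ctsb was at -0.98 (SE 0.144, adjusted p = 0.00984), Ctsl at -0.81 (adjusted p = 0.0195), Lgmn at -0.76 (SE 0.0522, adjusted p = 0.0019), Ctsz at -0.68 (adjusted p = 0.00239) and Ctsd at -0.27 (adjusted p = 0.0264). Lgmn, the asparaginyl endopeptidase known to start invariant chain cleavage, had ratios of -0.79, -0.75, -0.68 and -0.83, which lay close together. Ctsh, at -0.11, did not pass (adjusted p = 0.129). Ifi30, the thiol reductase that opens disulphide bonds of antigens, fell to 68.9% of control (log2 ratio -0.54, adjusted p = 0.0101). Marchf1, a ubiquitin ligase that removes class II molecules from the cell surface, fell by 0.68 on the log2 scale (SE 0.0473, adjusted p = 0.00198), with ratios between -0.71 and -0.63 on the 4 arrays. The co-stimulatory gene Cd86 fell by 0.30 (adjusted p = 0.0162), and Cd80 did not pass. Without single arrays, Ctsl was lost without day 5 or day 8 replicate 2 (adjusted p = 0.0589 and 0.06), Ctsd without any one of the 4 (0.0583 to 0.115), and Cd86 without day 5 replicate 1 or 2 or day 8 replicate 1 (0.0769, 0.0664 and 0.0663). Ctsl and Ctsd were also lost without background subtraction (0.0686 and 0.0617), and with median centring 0 of the 24 passed.

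Among the factors that bind the class II promoter elements, 1 fell and 1 rose. Rfx5, the DNA-binding subunit of the X-box complex, was at 68.7% of control (log2 ratio -0.54, SE 0.0539, adjusted p = 0.00392), with ratios of -0.44, -0.61, -0.54 and -0.58. Its partner Rfxank, at -0.14, did not pass (adjusted p = 0.127), and neither did Rfxap. Creb1, which binds the cAMP response element, rose by 0.64 (SE 0.0771, adjusted p = 0.0061), with ratios of 0.62, 0.70, 0.43 and 0.80. The mean of all their probes, in place of the brightest, put Creb1 at 0.19 (adjusted p = 0.0405). It put Rfx5 at -0.30 (adjusted p = 0.0124). The larger sizes given above are thus those of 1 probe of each gene, and the other probes brought both means nearer to 0. Nfya, Nfyb and Nfyc, the subunits of the Y-box factor, did not pass.

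Genes listed for the interferon-γ pathway to Ciita, among them a feedback inhibitor gene, were mostly lower. Of 9 such genes, all tested, 6 fell over both days, 0 rose and 3 did not pass, with a median of -0.41. Of all genes, 16.3% fell and 14.8% rose. Irf1, which acts at the interferon-responsive promoter of Ciita, had ratios of -0.93, -1.88, -0.85 and -1.98 (mean -1.41, SE 0.244, adjusted p = 0.0151). Irf8 gave -0.72, -1.98, -0.59 and -1.92 (mean -1.30, SE 0.299, adjusted p = 0.032). Socs1, the feedback inhibitor, gave -1.06, -2.84, -1.06 and -2.90 (mean -1.97, SE 0.417, adjusted p = 0.0258). As for Ciita, replicate 2 was lower than replicate 1 by about 1 log2 unit or more for Irf1, Irf8 and Socs1. The gap lay mainly in the controls. Replicate 2 minus replicate 1 of the control level was 1.156 for Irf1, 1.235 for Irf8 and 2.431 for Socs1. In the Cux2 siRNA pools it was 0.11, -0.06 and 0.62. Dye and control pool cannot be told apart here either. Ifngr2 and Jak2 passed with every single array left out, and Ifngr2 was at -0.41 (adjusted p = 0.01) and Jak2 at -0.58 (adjusted p = 0.00477). Ifng itself was at -0.35 (adjusted p = 0.0187) and was lost without day 5 replicate 1 (0.069), day 8 replicate 1 (0.0703) or day 8 replicate 2 (0.0649). Irf8 and Socs1 were lost without day 5 replicate 2 (0.0933 and 0.0733) or day 8 replicate 2 (0.0842 and 0.0683), and without day 8 replicate 2 the list held 3 called genes in place of 6. Without background subtraction Irf1, Irf8 and Socs1 did not pass either (0.0553, 0.103 and 0.127), and with median centring in place of loess 0 of the 9 did.

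Most class I presentation genes tested were lower as well. Of 13 listed, 9 were tested, and H2-K1, H2-D1, Nlrc5 and Pdia3 had no probe named here. Over both days 8 fell, 0 rose and 1 did not pass, where 16.3% of all genes fell and 14.8% rose. The median was -1.30 beside the class II median of -1.03. Tap1 was at 18.2% of control, Psmb9 at 20.8% and Psmb8 at 28.7%, and these 3 calls held without any single array. Over all settings tried, Psmb9 reached an adjusted p of 0.0807, while Tap1 and Psmb8 stayed under 0.05. The smallest change that passed was that of the chaperone gene Calr, at 75.5% of control (adjusted p = 0.044), and B2m, the light chain of class I molecules, did not pass at 69.4% of control. No test of the difference between the class I and class II genes was made.

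Markers of the cell types that could carry class II RNA gave mixed values. Counts of markers here and below are over both days, where 16.3% of all genes fell and 14.8% rose. Small counts in a list can lie near those shares. Of 16 macrophage and Kupffer cell markers tested, 13 fell, 0 rose and 3 did not pass (median -0.69), and their summed level was 53165 to 84098 in the Cux2 siRNA pools, against 106379 to 115686 in the controls. Marco, a Kupffer cell scavenger receptor, was at -2.84 (SE 0.259, adjusted p = 0.00329), Fcgr1 at -1.76 (adjusted p = 0.00841) and Aif1 at -1.40 (adjusted p = 0.00109). Vsig4, at -0.08, Csf1r, at -0.34, and Lyz2, at -0.47, did not pass (adjusted p = 0.39, 0.138 and 0.315), although Lyz2 passed without day 5 replicate 1 (-0.90, adjusted p = 0.0298). Without day 8 replicate 2 the count of macrophage markers that passed was 8. For comparison, the summed level of the 8 class II members was 22690 to 39898 in the Cux2 siRNA pools, against 60943 to 68922 in the controls. That sum is carried mainly by the brightest probes, those of Ctss and Cd74, with mean control levels of 15.04 and 13.77. It says little about the dimmer members.

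Of 13 dendritic cell markers tested, 3 fell, 1 rose and 9 did not pass (median -0.06), with a summed level of 1792 to 1996 in the Cux2 siRNA pools, against 2254 to 2565 in the controls. Itgax, the integrin CD11c, was at 43.0% of control (log2 ratio -1.22, SE 0.0816, adjusted p = 0.00185) and Batf3, a factor of cross-presenting dendritic cells, at -0.93 (SE 0.124, adjusted p = 0.00769), while Itgae rose by 0.57 (adjusted p = 0.00336). The gap between the summed levels lay mainly in Itgax and Batf3, with mean control levels of 8.885 and 8.624. Those sums therefore do not show a fall across the list. Siglech, named after its value was seen, was at -0.23 (adjusted p = 0.0387) and was lost without any one array (0.0514 to 0.154). Among the 9 that did not pass were Flt3 at -0.01, Zbtb46 at 0.17, Xcr1 at -0.06, Cd209a at 0.15 and Clec9a at -0.23. Their mean control levels, in the same order, were 6.37, 7.26, 7.38, 6.28 and 7.63. The offset of 50 compresses ratios at such dim levels, so ratios near 0 say little about these cells. Of 10 B cell markers tested, 1 fell, 2 rose and 7 did not pass (median 0.06), and their summed level was 1750 to 2202 in the Cux2 siRNA pools, against 1815 to 1967 in the controls, which overlap. Those 3 were Cd22 at -0.19 (adjusted p = 0.0365), Cd79b at 0.21 (0.0356) and Fcer2a at 0.23 (0.0264), and none of them passed when any single array was left out. The B cell genes Pax5 and Blk were not well above background. The summed level of the 10 B cell markers tested was low as well, so their ratios may also be compressed.

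Of 13 T and NK cell markers tested, 7 fell, 0 rose and 6 did not pass (median -0.23), with a summed level of 2619 to 2931 in the Cux2 siRNA pools, against 3900 to 4787 in the controls. The cytotoxic granule genes Gzma, at -1.30 (adjusted p = 0.0106), and Gzmb, at -1.19 (adjusted p = 0.0117), and the receptor gene Klrk1, at -0.70 (adjusted p = 0.0023), had the lowest ratios. None of these calls held in every setting tried. Over the settings Gzma ran from -1.58 to -0.70, Gzmb from -1.46 to -0.89 and Klrk1 from -1.5 to -0.22. Sinusoidal and vascular endothelium markers had a summed level of 77009 to 82341 in the Cux2 siRNA pools, against 75608 to 80723 in the controls, with 4 of 12 lower and 2 higher, and 1 or 2 calls in all without day 5 replicate 1, day 5 replicate 2 or day 8 replicate 2. Of 10 stellate cell markers 5 fell and 3 rose, of 5 bile duct markers 0 fell and 1 rose, and of 9 hepatocyte markers 2 fell and 2 rose, with 1 or 2 hepatocyte calls in all without any one array. The part of cell numbers in the lower class II values was not tested.

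The 5 named genes outside the set whose ratios lay nearest to the mean profile of H2-Aa, H2-Ab1 and Cd74 over the 4 arrays were Rhox5, Apol7c, Rgs4, Rnf125 and Clec4b1, of 14056 candidates. The mean profile was -0.65, -1.22, -0.51 and -0.92, and Rhox5 had -0.67, -1.18, -0.54 and -0.85. The root mean square difference from the profile was 0.0477 for Rhox5, 0.0515 for Apol7c, 0.0639 for Rgs4, 0.0776 for Rnf125 and 0.0833 for Clec4b1 in log2 units. Among the members, Cd74 lay nearest to H2-Aa (0.245) and to H2-Ab1 (0.284), and H2-DMa lay nearest to H2-DMb1 (0.281). The mean ratios of Rhox5, Apol7c, Rgs4, Rnf125 and Clec4b1, -0.84 to -0.81, follow from their choice by nearness to the profile. Likeness over 4 arrays, among which control pools recur, is a description of these arrays.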

How the data were processed

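Per the file headers, Agilent Feature Extraction 10.7.1.1 wrote the scanner tables. Median spot and local background signals of both channels were taken as the deposited intensity values, since the scanner tables used here hold medians where means had been planned. The scanner's processed intensity values and the authors' deposited table of log10 ratios were alternatives. Each entry of that table equalled the scanner's log ratio, turned to Cux2 siRNA over control, within 1e-05 for all 45018 features. Direction came from the dyes in the labels.

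Signals were corrected by normexp (offset 50) and loess in limma 3.58.1 (R 4.3.3), control spots (1639) at weight 0 and outlier spots left out, and spots were averaged per probe. Probes well above background in at least 2 of 8 channel readings were kept (31765 of 41174), and the brightest probe stood for a gene. Offsets compress ratios of dim probes. RefSeq accessions named 23374 probes (56.8%), so 17800 have no name here. Channel levels are log2 values after loess and Aquantile, and summed levels add them after taking them out of the log. limma fitted a mean per day, with 2 residual and 2.78 prior degrees of freedom. The number of arrays limits the precision. Each p-value rests on the spread between pools of mice, and that spread contains dye effects. The fit treats arrays as independent although control pools recur among them. The p-values, also those over both days, do not allow for this.

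The fit was tested on simulated data. Those data had independent noise on each array, without dye effects or shared control pools, so the test does not cover these features of the design. Members and lists were chosen with earlier results of these data known, and 1 gene of the interferon list is not reported here. Named were the members, Cux2, measured genes of the pathway and interferon lists, up to 3 extreme or not passing genes of other lists, and the 5 genes nearest in profile. The array design names build mm8, per the file headers, so gene coordinates are not given, except for RefSeq promoters of GRCm38.p6.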

Additional observations from a re-analysis of the deposited data

How the results depend on the processing

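Of 416 member values recomputed under the alternatives (8 genes, with 4 contrasts and 13 alternatives each), 326 kept their direction and their side of the threshold, 60 fell short of it, 16 newly passed and 14 changed sign. The 326 include values that did not pass in either setting, among them those for the difference between days. Only values that had passed could fall short, so the total overstates how steady the calls were. Members called were 5 on day 5 and 4 on day 8. They became 1 and 1 without background subtraction, 2 and 1 with the scanner's processed signals, 2 and 1 with the authors' deposited table, and 0 and 0 where arrays were only centred on their medians. The 6 called over both days became 4 without background subtraction, 5 with processed signals, 5 with the authors' table and 0 with median centring, where H2-DMa, H2-DMb1, Cd74 and Ctss had adjusted p-values of 0.0917, 0.0834, 0.283 and 0.247. Leaving out an array gave 0 to 5 members on day 5, 0 to 5 on day 8 and 4 to 7 over both days, and 0 for the difference between days. Genes called on day 5 (4217, of which 2365 lower and 1852 higher) became 2028 with processed signals, 2015 with the authors' table and 5 with median centring (4 lower, 1 higher), and 239 to 3605 without an array. On day 8 (3595, of which 2021 lower and 1574 higher) they became 2108 without background subtraction, 1476 with processed signals, 1467 with the authors' table and 3 with median centring (3 lower, 0 higher), and 137 to 2473 without an array. Over both days (7798, of which 4091 lower and 3707 higher) they became 269 with median centring (182 lower, 87 higher) and 3880 to 5504 without an array. The cause was not tested; fewer arrays leave fewer degrees of freedom. With replicate number, which is also the dye orientation, as a replicate block, members called were 7 on day 5, 7 on day 8 and 7 over both days, and genes called were 8228, 7451 and 11246. Ciita then passed on day 5 (adjusted p = 0.000855), on day 8 (0.00129) and over both days (-1.14, 0.000218). Replicate 1's deviations from its day mean correlated between days at r = 0.5 over 25091 genes. Per the labels, same-numbered samples share only the number and the dyes, and the control pool of each array is not stated. The block was therefore not used. Signs changed only near 0 or in the difference between days. H2-Oa was 0.012 over both days with processed signals and with the authors' table, and -0.027 to 0.059 on day 5 without one of that day's arrays. In the difference between days, H2-Aa was -0.049 with the mean of all probes. Leaving out single arrays gave differences of -0.27 to 0.49 for H2-Aa, -0.014 to 0.88 for H2-Ab1, -0.094 to 0.53 for H2-DMa, -0.10 to 0.33 for Cd74, -0.57 to 0.90 for Ciita and -0.50 to 0.44 for Ctss. Dim probes, such as those of H2-Oa and H2-Eb2, can show only compressed ratios.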
